A study of Mus musculus with 2 samples.

Results

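Zc3h7a is a protein-coding gene on the minus strand of mouse chromosome 16, at 11136594 to 11176393 of mm10, and its locus was taken as the gene with 2 kb on both sides, 43800 bp from 11134594 to 11178393. The gene was chosen because, of 21900 protein-coding genes, it held the most CG cytosines called in both libraries, so the number, context and position of its calls are what selected it and are given as a description. The locus held 15 of the 28569 cytosines called in replicate 1 (0.0525%) and 15 of the 29650 called in replicate 2 (0.0506%). All but 1 of them lay within 154 bp, from 11144043 to 11144196, in the 10 kb bin from 11140000 to 11149999. The 154 bp are called the cluster here.

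Both libraries came from genomic DNA of mouse embryonic stem cells, which are pluripotent cells of the early embryo kept in culture, and the labels give no line, sex, genotype or treatment. They form 1 group of 2 libraries with no untreated or unenriched control, and separate cultures are not mentioned in the labels. In CLED-seq, DNA fragments that carry 5-formylcytosine (5fC) are tagged with biotin and captured, and the deaminase A3A then converts cytosines without the tag, and a position that is still sequenced as C afterwards is a candidate 5fC. The identity of the cells was not checked against marker genes, since DNA and not RNA was read.

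5fC arises when TET enzymes oxidise 5-methylcytosine by way of 5-hydroxymethylcytosine, mostly at CG dinucleotides, and the glycosylase TDG can excise it so that repair restores plain cytosine. It is therefore known as an intermediate of active demethylation, and in embryonic stem cells it is present at low abundance. A3A, a cytidine deaminase of the APOBEC3 family, acts on single-stranded DNA and favours a T just before the target C. Zc3h7a encodes a protein with CCCH zinc fingers, a fold that commonly binds RNA. The human protein and its paralogue ZC3H7B have been found to bind precursors of certain microRNAs.

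The level of a site is the share of its reads that kept the C. It describes the fragments that were captured, and the fraction of genome copies with 5fC cannot be read from it. Levels are given with 95% Wilson intervals, which cover counting error only and treat each read as independent. Reads amplified by PCR are not independent molecules, so the intervals can be too narrow. Only cytosines with at least 30 reads and an adjusted p under 0.05 in the authors' own test are listed. A cytosine that is not listed may thus have kept its C less often, been covered by fewer reads or not covered at all.

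Each listing gives the cytosine with the 2 bases after it, and these trinucleotides, from both strands, fix 49 of the 158 reference bases across the cluster, with 0 conflicts where they overlap. The sequence is shown because it places the calls relative to one another. It reads on the plus strand of chr16:11144041-11144198, 5′ to 3′, with n for a base that no listing gives. Capital C marks a called cytosine of the plus strand, and capital G a called cytosine of the minus strand.
Zc3h7a cluster: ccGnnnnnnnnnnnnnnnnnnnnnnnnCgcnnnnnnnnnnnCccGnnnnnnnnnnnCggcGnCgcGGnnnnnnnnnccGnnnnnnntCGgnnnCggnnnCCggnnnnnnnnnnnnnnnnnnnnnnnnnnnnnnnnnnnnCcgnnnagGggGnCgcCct

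The cluster held 20 distinct called cytosines over both libraries, 14 in replicate 1 and 15 in replicate 2, of which 9 were listed in both. Another 5 were listed in replicate 1 alone and 6 in replicate 2 alone. They lay on both strands, 11 on the plus and 9 on the minus strand, a median of 4 bp apart and at most 39 bp apart. The cluster lay inside the gene, 32.2 to 32.4 kb downstream of its annotated start and 7.45 kb or more from its other end. Exons and introns were not used here, so whether the cluster is exonic or intronic is not given. The small nuclear RNA gene Gm24145, which lies within Zc3h7a, was 22909 bp away and held 0 called cytosines.

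Most of the called cytosines of the cluster were in CG. These were 13 of the 20, or 65.0% (43.3 to 81.9). By library the count was 9 of 14 in replicate 1 (64.3%) and 9 of 15 in replicate 2 (60.0%), while CG made up 7.98% and 8.18% of calls outside the locus. The 13 sites fell in 12 CpGs. Of these, 1 was called on both strands, in replicate 1. The CG share among all covered cytosines of the cluster is not known, so the share shows no preference of the modification for CG.

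The bases after the called cytosines were mostly G or C. The CG sites were followed by G in 7 cases, by C in 5, by A in 1 and by T in 0. Outside the locus CGT made up 20.7% and 21.8% of CG calls in the libraries. The 7 sites outside CG all had a second C after the called one (3 CCG, 2 CCC and 2 CCT), and 0 had A or T there. Elsewhere CC made up 31.0% and 31.8% of the calls outside CG, and CA 35.2% and 34.8%. The base before the called cytosine could be read from the neighbouring listings at 6 of the 20 sites. It was C at 5 and T, the base A3A favours, at 1, the plus-strand CG site at 11144128. A base could be read only where another listing covered it, and every listing starts with a called C. At 11144106 and 11144141 the base before was itself a called cytosine. The split therefore shows nothing about the preference of A3A. The base composition of the 154 bp as a whole is not known, and its part in these counts was not tested.

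Among the CG sites listed in both libraries, the plus-strand site at 11144128 stood highest. There, 28 of 50 reads kept the C in replicate 1 (56.0%; 42.3 to 68.8) and 29 of 56 in replicate 2 (51.8%; 39.0 to 64.3). The minus-strand cytosine of the same CpG, at 11144129, was listed in replicate 1 alone, with 10 of 44 reads (22.7%; 12.8 to 37.0). Within that library the intervals of the CpG's strands did not overlap, and the plus strand was the higher. The opposite cytosine is not listed in replicate 2, so the strands could be set side by side in 1 library.

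The plus-strand CG site at 11144068 kept the C in 21 of 55 reads in replicate 1 (38.2%; 26.5 to 51.4) and 22 of 55 in replicate 2 (40%; 28.1 to 53.2). The minus-strand CG site at 11144119 kept it in 12 of 43 reads (27.9%; 16.7 to 42.7) and 13 of 46 (28.3%; 17.3 to 42.5). The plus-strand CG site at 11144141 kept it in 14 of 57 (24.6%; 15.2 to 37.1) and 15 of 57 (26.3%; 16.6 to 39.0). At each of these sites the libraries lay within 2 points of each other, and the intervals of the libraries overlapped at each.

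The fifth CG site of this kind, on the minus strand at 11144101, was where the libraries lay farthest apart. It kept the C in 32 of 73 reads in replicate 1 (43.8%; 33.0 to 55.2) and in 7 of 30 in replicate 2 (23.3%; 11.8 to 40.9). The level was 20.5 points lower in replicate 2, and the intervals overlapped. Its depth also differed, by 43 reads, or 2.43-fold. A ratio as large was found at 18 of the 11542 cytosines listed in both libraries genome-wide (0.156%). At the other 8 shared sites of the cluster the depths were within 11 reads.

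The highest level of the cluster lay outside CG. The minus-strand CHH site at 11144191, in the trinucleotide CCC, kept the C in 38 of 47 reads in replicate 1 (80.9%; 67.5 to 89.6) and 37 of 48 in replicate 2 (77.1%; 63.5 to 86.7). The lowest shared level was found on the same strand 3 bp away, at the CHH site 11144188 in CCT. That site kept the C in 12 of 68 reads (17.6%; 10.4 to 28.4) and 12 of 70 (17.1%; 10.1 to 27.6). The intervals of these neighbours did not overlap in either library, so cytosines 3 bp apart on the same strand stood at opposite ends of the cluster's range.

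Directly adjacent cytosines stood closer together. On the plus strand, the CHG site at 11144140 kept the C in 10 of 49 reads in replicate 1 (20.4%; 11.5 to 33.6) and 11 of 50 in replicate 2 (22.0%; 12.8 to 35.2), next to the CG site at 11144141 described above. On the minus strand, the CHG site at 11144107 kept it in 16 of 77 reads (20.8%; 13.2 to 31.1) and 18 of 66 (27.3%; 18.0 to 39.0). Its neighbour at 11144106, a CG site listed in replicate 1 alone, kept it in 16 of 63 reads (25.4%; 16.3 to 37.3). The intervals of each adjacent pair overlapped.

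The remaining CG sites were each listed in 1 library. In replicate 1, the plus-strand site at 11144103 had 25 of 42 reads (59.5%; 44.5 to 73.0), the highest CG level of the cluster in either library, and the minus-strand site at 11144043 had 15 of 37 (40.5%; 26.3 to 56.5). In replicate 2, the plus-strand site at 11144097 had 19 of 44 reads (43.2%; 29.7 to 57.8) and the minus-strand site at 11144085 had 38 of 94 (40.4%; 31.1 to 50.5). The plus-strand sites at 11144134 and 11144193, also of replicate 2, had 9 of 32 reads (28.1%; 15.6 to 45.4) and 20 of 104 (19.2%; 12.8 to 27.8). The last was the deepest site of the cluster and the lowest of its CG sites. The non-CG sites of single libraries stood between 20.8% and 26.7%, at 11144082, 11144180 and 11144196.

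**Figure D1:**
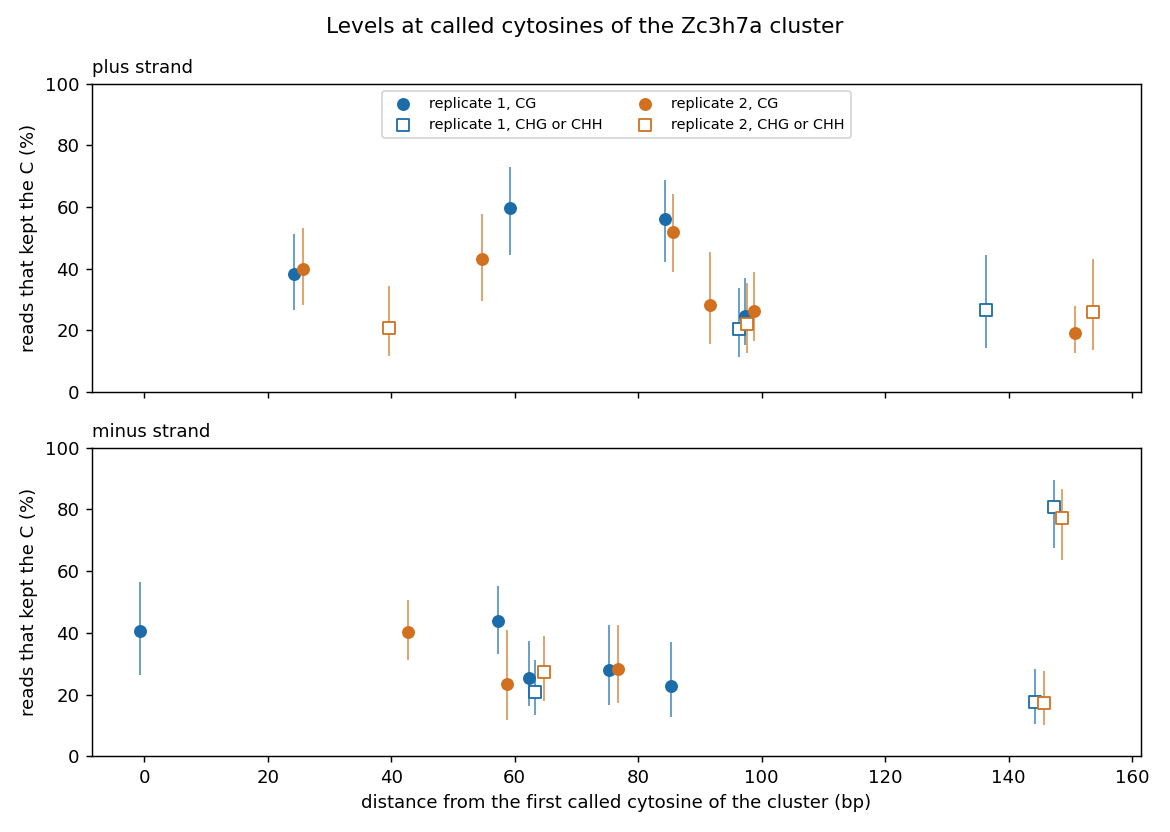
Share of reads that kept the C (%, vertical axis) at the 20 called cytosines of the Zc3h7a cluster against distance from the first of them (bp), by strand, for replicate 1 (blue) and replicate 2 (orange). Points are single sites, filled in CG and open outside it, and bars are 95% Wilson intervals. Most sites lie under 50%, and the CHH site on the minus strand near the right edge stands at 80.9% and 77.1%.

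Ordered by level, the cluster fell from the CHH site at 11144191 through the CG sites at 11144103 and 11144128 to a broad group below 50%. The intervals at the top of that order overlapped. Overlap does not show equal levels, and the differences between these sites were not tested. The interval of 11144191 in replicate 1 began at 67.5% and that of 11144103 reached 73.0%. In replicate 2 the interval of 11144191 began at 63.5% and that of 11144128 reached 64.3%. The median level was 27.3% in both libraries (lowest 17.6%, highest 80.9% in replicate 1, and 17.1% and 77.1% in replicate 2). Calls outside the locus had medians of 46.7% and 46.2%, while 8 of the 15 other site-dense bins described further on had a lower median than the cluster in replicate 1, and 9 of them in replicate 2. Levels of at least 50% were found at 3 of 14 sites in replicate 1 and 2 of 15 in replicate 2, against 47.0% and 46.4% of calls elsewhere. CG sites of the cluster had a median of 38.2% in replicate 1 and 28.3% in replicate 2, and the other sites 20.8% and 23.9%. These medians cover partly different sites in each library. At sites listed in both, the mean in CG was 38.1% in replicate 1 and 33.9% in replicate 2. Outside CG it was 34.9% and 35.9%, a mean raised by the CHH site at 11144191 with 80.9% and 77.1%. The other shared sites outside CG stood between 17.6% and 20.8% in replicate 1 and between 17.1% and 27.3% in replicate 2. By these means CG was the higher in replicate 1 alone, and by the medians above it was the higher in both libraries.

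Neither strand was the higher in both libraries. On the plus strand the median was 32.4% over 6 sites in replicate 1 and 26.3% over 9 in replicate 2. On the minus strand it was 26.7% over 8 sites and 27.8% over 6. The plus strand thus had the higher median in replicate 1 and the minus strand in replicate 2, and the ranges of the strands overlapped in both.

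The cluster was covered more deeply than the typical called site. Median depth was 49.5 reads in replicate 1 (30 to 77) and 50 in replicate 2 (30 to 104), against 34 in both libraries outside the locus. A depth at or above the cluster's median was found at 5.55% and 5.33% of those other calls. Among the 15 other site-dense bins, 7 had a higher median depth than the cluster in each library, reaching 90 and 93 reads. Because the number of reads sets which low levels can pass the authors' test, a deeper site can be listed at a lower level, and the part of depth in the low median level was not tested.

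**Figure D2:**
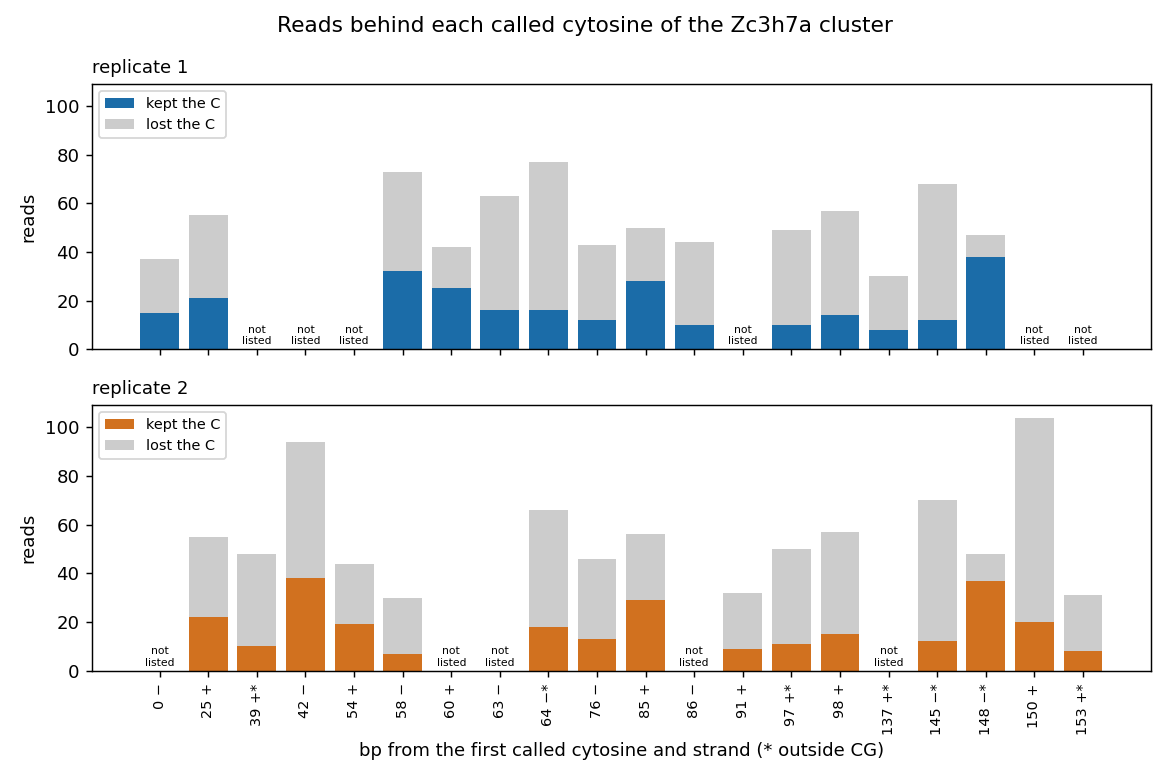
Reads (vertical axis) behind each called cytosine of the Zc3h7a cluster, coloured for reads that kept the C and grey for reads that lost it, in replicate 1 (top) and replicate 2 (bottom); sites run in order of position, named by bp from the first and by strand, with an asterisk outside CG. Depth ran from 30 to 77 reads in replicate 1 and from 30 to 104 in replicate 2, and 11 sites are listed in 1 library only.

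The 9 shared sites of the cluster had mean levels of 36.7% and 34.8%. Their difference between libraries ran from 0.354 to 20.5 points, with a median of 1.82 points, and the intervals of the libraries overlapped at 9 of 9. With a two-sided Fisher's exact test at each site, adjusted by the Benjamini-Hochberg procedure over all 11542 shared sites, 0 of the 9 differed. Across all shared sites 3 passed (0.026%). At an unadjusted p under 0.05 the count was 0 of 9 in the cluster and 27 of 11542 overall. The lowest p of the cluster was that of 11144101 (Fisher's exact test, p = 0.0731, adjusted p = 1). At these depths a difference of that size could not be told from counting error, which does not show that the libraries were alike.

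Read counts were identical in both libraries, kept and lost alike, at 70.6% of all shared sites. A chi-square of kept and lost reads came to 0.0611 per degree of freedom over the 11084 shared sites where it could be computed, where independent counting gives a value near 1. The difference between the libraries was thus smaller than the sampling noise of independent counts, so they count as 1 sample at shared sites and are given no SD. Fisher's exact test treats their reads as independent, so its results above do not measure the agreement of separate samples. In the cluster the counts were identical at 0 of 9 sites, at 3 of 9 each count was within 1 read, and the chi-square per degree of freedom was 0.572. That chi-square came mainly from the site at 11144101, with 32 kept and 41 lost reads in replicate 1 against 7 and 23 in replicate 2. It therefore does not describe the cluster's shared sites in general. Few identical counts were also found in the 15 other site-dense bins of 10 kb described further on, at 11 of their 379 shared sites (2.90%), so this was not particular to the cluster. Of the 30 pairs made of a site listed in replicate 1 alone and a site listed in replicate 2 alone, 2 had kept and lost counts within 1 read of each other. Both involved the CHG site at 11144180 (8 kept and 22 lost), paired with 11144196 at 16 bp (8 and 23) and with 11144134 at 46 bp (9 and 23).

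The rest of the locus, 43646 bp, held a single listed cytosine, the plus-strand CHG site at 11150413 in the trinucleotide CAG, 6.22 kb from the cluster. There 7 of 30 reads kept the C in replicate 1 (23.3%; 11.8 to 40.9), and the site is not listed in replicate 2. The authors' deposited adjusted p there was 0.0374. Pooled over both libraries, mean levels in the cluster's bin were 11 points above this site and median depth was 20 reads above it, but with 1 site and 1 library on that side no comparison holds up. The promoter, the 2 kb flanks and the ends of Txndc11 and 4930509G22Rik that reach into them held 0 called cytosines. The next calls outside the locus were at least 59201 bp away on the lower side and at least 21537 bp away on the upper side.

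Genes beside Zc3h7a had few calls. Of the 5 protein-coding genes on each side, Prm1, Rmi2, Litaf, Gspt1, LOC115488671 and Tnfrsf17 held 0 within 2 kb in either library. Snn, which encodes the small protein stannin, and Txndc11, a thioredoxin-domain gene, each counted 1 call per library, and these genes overlap. Rsl1d1, a ribosome biogenesis gene, held 1 in replicate 2. Snx29, a sorting nexin gene of 436 kb, held 14 and 15, of which 6 were shared and 0 of those were in CG. Zc3h7a, with 39.8 kb, held 15 in each library, of which 9 were shared and 5 of those were in CG.

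Over both libraries, 16 bins of 10 kb held at least 10 distinct called cytosines, and the Zc3h7a bin was the most CG-rich of them and the narrowest. Its CG share of 65.0% stood beside 0% to 36.4% in the other 15. Its called sites spanned 154 bp, at 13.0 per 100 bp. In the other 15 the span ran from 217 to 9723 bp. A bin on chromosome 15 was denser, with 57 sites in 291 bp (19.6 per 100 bp), of which 8.77% were in CG. A bin on chromosome 16 in Filip1l and Cmss1 had 11 sites in 217 bp and a CG share of 36.4%, and 1 on chromosome 12 at Tmem196 had 16 sites in 252 bp and a CG share of 0%. Median levels in these 3 narrow bins were 23.3% and 22.9% (chromosome 15), 47.1% and 44.1% (chromosome 16) and 42.9% and 31.9% (chromosome 12). Over all 15 other bins the median level ran from 19.8% to 52.8% in replicate 1 and from 19.3% to 59.4% in replicate 2, and the cluster stood near the middle of that order. Several of the other bins adjoin one another, on chromosome 9 and on chromosome 11, so the 15 are not 15 separate places. Bins were picked by their calls, so these shares are a description.

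**Figure D3:**
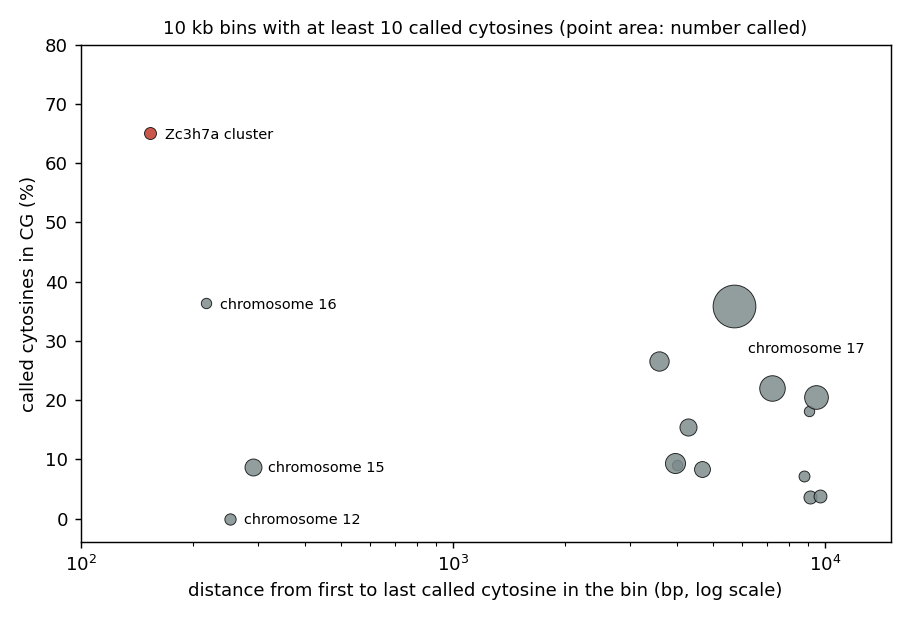
Share of distinct called cytosines in CG (%, vertical axis) against the distance from the first to the last of them (bp, log scale) in the 16 bins of 10 kb with at least 10 called cytosines over both libraries; point area grows with the number called. The Zc3h7a cluster (red) stands at 65.0% and 154 bp, apart from the other 15 bins (grey), which reach at most 36.4%.

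The spacing of the calls was set against that of the other 15 bins, by sliding the cluster along each in both orientations and counting called cytosines that coincided in strand and trinucleotide. At most 4 of the 20 coincided, in the bin on chromosome 17 with 451 called cytosines, and the next best placement there gave 3. At that best placement, of the bases known in both places 18 were alike and 14 were not. In the Filip1l and Cmss1 bin 2 of 20 coincided, with 8 known bases alike and 0 unlike. Calls that coincide share their trinucleotide by definition, so up to 3 alike bases per coinciding call follow from the choice of placement. In both bins these can be most of the alike bases. Likeness of the sequences was not tested. In the other 13 bins at most 2 coincided.

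Zc3h7a held 5 shared CG sites, and the genes next in that order, Mical3 and Tpi1, held 3 each. By the share of calls in CG, averaged over the libraries, it stood at 60.0% among 407 protein-coding genes with at least 5 calls in each library, whose median was 6.25%. The genes nearest to it were Fndc3b (46.7%), which encodes a fibronectin-domain protein, Mical3 (40.2%), a monooxygenase gene of the actin cytoskeleton, and Mecom (40%), a zinc finger transcription factor gene. These genes are 295, 242 and 558 kb long and held between 5 and 8 calls per library, against 15 in Zc3h7a.

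Of 47 other CCCH zinc finger genes, 25 held a call in replicate 1 (53.2%, against 39.4% of all protein-coding genes) and 28 in replicate 2 (59.6%, against 40.3%). A site called in both libraries was held by 14 (29.8%, against 22.2%), and a CG site called in both by 4 (8.51%, against 3.16%). Gene length was not matched in these shares. The 4 genes, named after their values were seen, were Zc3h18, whose human product links the cap-binding complex to RNA decay, the RNA-binding protein gene Rbm27, the tRNA methyltransferase gene Trmt1 and Zfp36l1, whose product promotes decay of AU-rich mRNAs. Pan3, which encodes a subunit of a poly(A)-shortening enzyme, had the most shared sites after Zc3h7a, 4, of which 0 were in CG. Zc3h18 had 2, both in CG, and the helicase gene Helz had 2, of which 0 were in CG. Unkl, Zc3h12a and Zc3h3 tied with them at 2, of which 0 were in CG. The paralogue Zc3h7b held 2 calls in replicate 1 and 1 in replicate 2, of which 0 were shared and 0 were in CG.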

How the data were processed

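Called cytosines were read from 2 libraries of 1 group, numbered by their titles. Per the submitters' processing notes, which give neither roles nor order, Bismark 0.23.1, Bowtie2 2.4.5 and SAMtools were used with the mm10 build, besides cutadapt 4.1 and FastQC 0.11.9. Removal of duplicate reads and pooling are not given in the sources used here. Per the file headers, the authors deposited raw counts of reads that kept and that lost the C at each listed cytosine, with their sum as depth. The authors also deposited a p-value per cytosine with Holm and Benjamini-Hochberg adjustment, per the file headers. Each deposited p equals the binomial probability of just that number of kept reads when 6.93% are kept at random. The probability of that count or more was up to 1.45 and 1.47 times larger in the locus. It exceeded the largest listed p at 0 sites of the locus.

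Sites were matched by chromosome, position and strand. Fisher's exact test, two-sided, was run on the 11542 cytosines listed in both libraries and tried on simulated data. The simulated counts were drawn independently for each library, so the trial does not cover the many identical counts of these libraries. Genes came from a RefSeq table of GRCm38.p6, the build that mm10 names, and were taken with 2 kb flanks. The gene's strand came from a RefSeq promoter table, and no genome sequence was used here. All 48 genes of the CCCH list were matched. Alternatives were stricter adjusted p, a depth of 50, a level of 20%, no flanks, a wider bin and each replicate left out.

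The gene, its cluster, the gene list and the tests were chosen with earlier results of these data known. The text names every site of the locus listed in both libraries, the CG sites of the cluster listed in 1 library, up to 4 list genes with the most shared sites (ties by CG sites, then alphabet), 5 neighbouring genes per side and the 3 genes nearest in CG share. The 3 narrow bins and the chi-square were chosen after the values were seen. Software was scipy 1.17.1, pandas 2.3.3, numpy 2.4.6 and matplotlib 3.10.9 under Python 3.11.15.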

Additional observations from a re-analysis of the deposited data

How the results depend on the processing

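Under 26 of 31 alternatives, values stayed inside their spread and counts within 1.5 times, and under 5 a count moved further. Some of the 26 could not change. The flanks held 0 called cytosines, so leaving them out altered nothing, and Holm adjustment cannot raise a count of 0. Averaged over the libraries, the locus held 15 called cytosines and the cluster bin 14.5. Both counts were 9.5 with an adjusted p under 0.001 and 7.5 at a depth of at least 50, and the sites called in both libraries went from 9 to 5 at that depth. Fewer sites can pass these stricter limits by construction. Leaving out a replicate gave 15 in the locus each time and 14 to 15 in the bin. The single site outside the cluster was lost under the stricter adjusted p, at a depth of 50 and without replicate 1, and it fell inside the wider bin, which then counted 15, so these gave no difference in CG share, level or depth between the cluster and the rest. Without replicate 2 the differences were 64.3 points in CG share, 12.7 points in level and 19.5 reads. With Holm adjustment, and at a depth of at least 50 in both libraries, 0 shared sites of the locus differed by Fisher's exact test; 5 sites could be tested at that depth. No paired analysis was possible because the libraries form 1 group. Depth limits the precision: the 95% intervals of the cluster's levels had a median width of 23.2 points in both libraries.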
